A study of Mus musculus with 12 samples.

Results

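Embryoid bodies (EBs) that lacked heterochromatin protein 1α (HP1α) were set against wild-type (WT) EBs at day 7 of differentiation, to ask which genes depended on HP1α once embryonic stem cells (ESCs) had left the pluripotent state. The groups compared held 4 of the 12 arrays of the series, 2 of EB HP1αKO (genotype Cbx5-/-, line given as R1) and 2 of EB WT (line given as HM1). Both kinds of EB came from ESCs that had been grown on feeder fibroblasts and were then cultured in suspension without leukaemia inhibitory factor, so nothing but the genotype and the named line distinguishes the groups in the labels. Of 19938 genes with a feature of their own on the array, 10036 had a signal over 45 (5.49 on the log2 scale) on at least 1 of the 4 arrays and were tested. The methods call HM1 the littermate control of the knockouts, whereas the labels name another line for them, so the lack of HP1α and a difference between lines cannot be told apart here. The number of independent clones behind each group was not stated. The limma fit also held the 2 arrays of EB HP1βKO, from EBs that lacked the related protein HP1β. Its standard errors and p-values therefore pool the replicate spread of EB HP1αKO, EB WT and EB HP1βKO, and measure nothing beyond it. All signals are on the log2 scale, differences are EB HP1αKO minus EB WT ± the standard error of limma with n = 2 arrays per group, and p-values are two-sided and adjusted over the 10036 genes.

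HP1 proteins bind histone H3 that is methylated on lysine 9, through a chromodomain, and bring further silencing factors to it through a chromoshadow domain. Mammals have the paralogues HP1α, HP1β and HP1γ, encoded by Cbx5, Cbx1 and Cbx3, and HP1α is the one most closely tied to the compact heterochromatin around centromeres. EBs are aggregates in which ESCs form derivatives of all germ layers without instruction. At this stage they typically hold beating cardiac muscle, blood islands, vessels, visceral endoderm, early neural tissue and remnants of undifferentiated cells.

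Cbx5, the targeted gene, read 9.20 and 9.21 in EB HP1αKO and 10.26 and 10.31 in EB HP1βKO, against 10.36 and 10.40 in EB WT. It was thus low in both knockout arrays, and it fell by 1.18 (± 0.08, adjusted p = 0.000151). The signal that remained is far above the floor, and where its probes lie relative to the deletion was not stated. The paralogue genes did not pass: Cbx1 averaged 9.65 in EB HP1αKO and 9.41 in EB WT (adjusted p = 0.0917), and Cbx3 averaged 11.39 in EB HP1αKO and 11.33 in EB WT (adjusted p = 0.71). Among 15 tested neighbours of Cbx5 on chromosome 15, 0 were called, against 13.4% of all genes tested, with differences between -0.26 and 0.32. Of 24 heterochromatin and DNA methylation factors tested, 0 were called higher and 2 lower (8.33%), against 7.77% and 5.67% of all genes. The 2 were Tasor (-0.54 ± 0.13), a subunit of the HUSH silencing complex, and Dnmt3b (-0.40 ± 0.09), a de novo DNA methyltransferase. Neither of these calls was kept in every fit that left out 1 array, and the median of the list was -0.03.

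The label of the EBs was read against marker genes. The 15 pluripotency genes tested averaged 6.95 and 6.84 in EB HP1αKO and 7.42 and 7.58 in EB WT, against 9.34 to 9.91 on the ESC arrays. The 21 cardiac sarcomere genes averaged 8.42 and 8.45 in EB HP1αKO and 7.38 and 7.33 in EB WT, against 4.87 to 5.08 on the ESC arrays. Both groups of EBs had therefore moved away from the ESC level in these markers. Replicates lay close together, with a standard deviation of the replicate difference over genes of 0.12 in EB HP1αKO and 0.17 in EB WT, and library medians between 7.39 and 7.51. In the ESCs of the series, 2 of the 4 arrays labelled WT or HP1αKO had a Cbx5 level that opposed their label, and ESC arrays entered no result below except where they are named.

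In all, 1349 of the 10036 genes were called (13.4%), 780 of them higher (7.77%) and 569 lower (5.67%) in EB HP1αKO. Most differences were modest: the median size among called genes was 0.52, and 89 called genes were over 2-fold higher and 62 over 2-fold lower. The groups of arrays did not overlap for any called gene, but with 2 arrays each this was true of 6009 of all genes tested (59.9%). For 206 called genes 1 group mean lay under the floor, where the size of a difference is uncertain, and for 31 both did. A rule of fold size alone, every HP1αKO array past every WT array by 1.5-fold, took 355 genes (3.54%), 230 of them higher (2.29%) and 125 lower (1.25%). At 2.5-fold it took 62 (0.618%), 37 higher (0.369%) and 25 lower (0.249%). Leaving out a single array lowered the count of called genes to between 416 and 1028, and 340 genes passed in all 4 such fits. The direction held for all 1349, as it had to with groups that do not overlap. A gene that lay under the floor on both arrays of one group was tested only because the other group was high, so it had to differ. Such members are named with the main lists below, and the counts and medians of a list include them. Percentages given with a list are shares of its tested members, to be set beside 7.77% higher and 5.67% lower of all genes.

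Imprinted genes gave several of the largest differences. At the Dlk1-Meg3 cluster on distal chromosome 12, the maternal chromosome expresses noncoding RNAs, among them Meg3, the snoRNA host Rian and a long row of microRNAs, and the paternal chromosome expresses the Notch-related growth regulator Dlk1. Meg3 read 6.27 and 5.61 in EB HP1αKO, against 9.73 and 9.31 in EB WT. It fell by 3.57 (± 0.23, adjusted p = 0.000123). Rian read 3.30 and 3.10 in EB HP1αKO, under the floor, against 6.62 and 6.33 in EB WT, a difference of -3.27 ± 0.17. Dlk1 went the other way, at 11.35 and 11.29 in EB HP1αKO and 9.57 and 9.93 in EB WT (1.57 ± 0.12, adjusted p = 0.000327). The HP1βKO EBs, which carry the same line label as HP1αKO, had high Meg3 (mean 10.16) together with high Dlk1 (11.50 and 11.37).

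From Dlk1 to Mir668, 13 genes of the cluster were tested, of which 7 were called lower and 1, Dlk1, higher. Of all genes, 5.67% were lower and 7.77% higher. A snoRNA of the Rian transcript, DQ267102, read 5.04 and 5.10 in EB HP1αKO against 7.48 and 7.07 in EB WT (-2.21 ± 0.16). Of 9 microRNA genes of the cluster, 4 were called lower and all 9 differences were below 0, while of all 38 microRNA genes tested on the array 5 were called lower and 0 higher. The called genes were Mir679 (-2.47 ± 0.32), Mir382 (-2.28 ± 0.21), Mir329 (-1.48 ± 0.25) and Mir668 (-0.68 ± 0.14). These 4, with DQ267102 and the uncalled Mir134, were under the floor on both HP1αKO arrays. They were tested only through EB WT, which limits what their calls and signs can show. Mir679 read 3.95 and 3.68 in EB HP1αKO against 6.80 and 5.76 in EB WT, and Mir382 read 3.05 and 3.21 in EB HP1αKO against 5.70 and 5.12 in EB WT. The other 5, Mir673, Mir341, Mir666, Mir667 and Mir134, lay between -0.52 and -0.05 and did not pass. Array features of this kind read the precursor or the host transcript as well as a mature microRNA, so these are levels of the locus and not of the mature strands.

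The mature strands that the 4 called genes encode are given from the RefSeq table of GRCm38.p6, since they are what this locus would supply to the silencing machinery. All lie on the plus strand of chromosome 12, between chr12:109713503-109713524 for miR-329-5p and chr12:109734774-109734797 for miR-668-3p. Capitals mark the seed, bases 2 to 8, which a microRNA uses to find its targets.
miR-329-5p: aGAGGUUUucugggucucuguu
miR-329-3p: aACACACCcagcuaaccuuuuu
miR-679-5p: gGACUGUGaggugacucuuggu
miR-679-3p: aGCAAGGUccuccucacaguag
miR-382-5p: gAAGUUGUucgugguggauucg
miR-382-3p: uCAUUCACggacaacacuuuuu
miR-668-5p: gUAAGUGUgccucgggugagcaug
miR-668-3p: uGUCACUCggcucggcccacuacc
The 8 strands have 8 different seeds, so no 2 of them share one.

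At the Igf2r cluster on chromosome 17 the same opposition of noncoding and coding transcript was seen. Airn, a noncoding RNA of the paternal chromosome under which Igf2r is silent in cis, read 4.50 and 4.68 in EB HP1αKO against 7.07 and 7.20 in EB WT (-2.54 ± 0.16, adjusted p = 0.000116). Igf2r, the receptor that clears insulin-like growth factor II, read 11.04 and 11.15 in EB HP1αKO against 10.24 and 10.20 in EB WT (0.88 ± 0.08). Airn was under the floor on both HP1αKO arrays. It lies antisense to Igf2r, and whether the features of the array separate the strands was not tested. Of 29 other imprinted genes tested, 6 rose (20.7%) and 4 fell (13.8%), and the median was 0.03, close to the 0.04 of all genes. The falls were in Nnat (-1.54), a small membrane proteolipid of developing brain, Plagl1 (-1.46), a zinc finger factor of an imprinted growth network, Phlda2 (-1.44), which restrains placental growth, and Peg3 (-0.35). The rises were in Dcn (1.87), a small proteoglycan, Grb10 and Asb4 (both 0.79), the growth factor gene Igf2 (0.59), Mkrn3 (0.47) and Ndn (0.33). Dcn lay at or under the floor on both WT arrays and was tested only through EB HP1αKO. Grb10 read 11.52 and 11.53 in EB HP1αKO against 10.72 and 10.75 in EB WT. Of these 10, Dcn, Grb10, Asb4, Nnat, Plagl1 and Phlda2 passed in all 4 fits that left out an array.

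**Figure D1:**
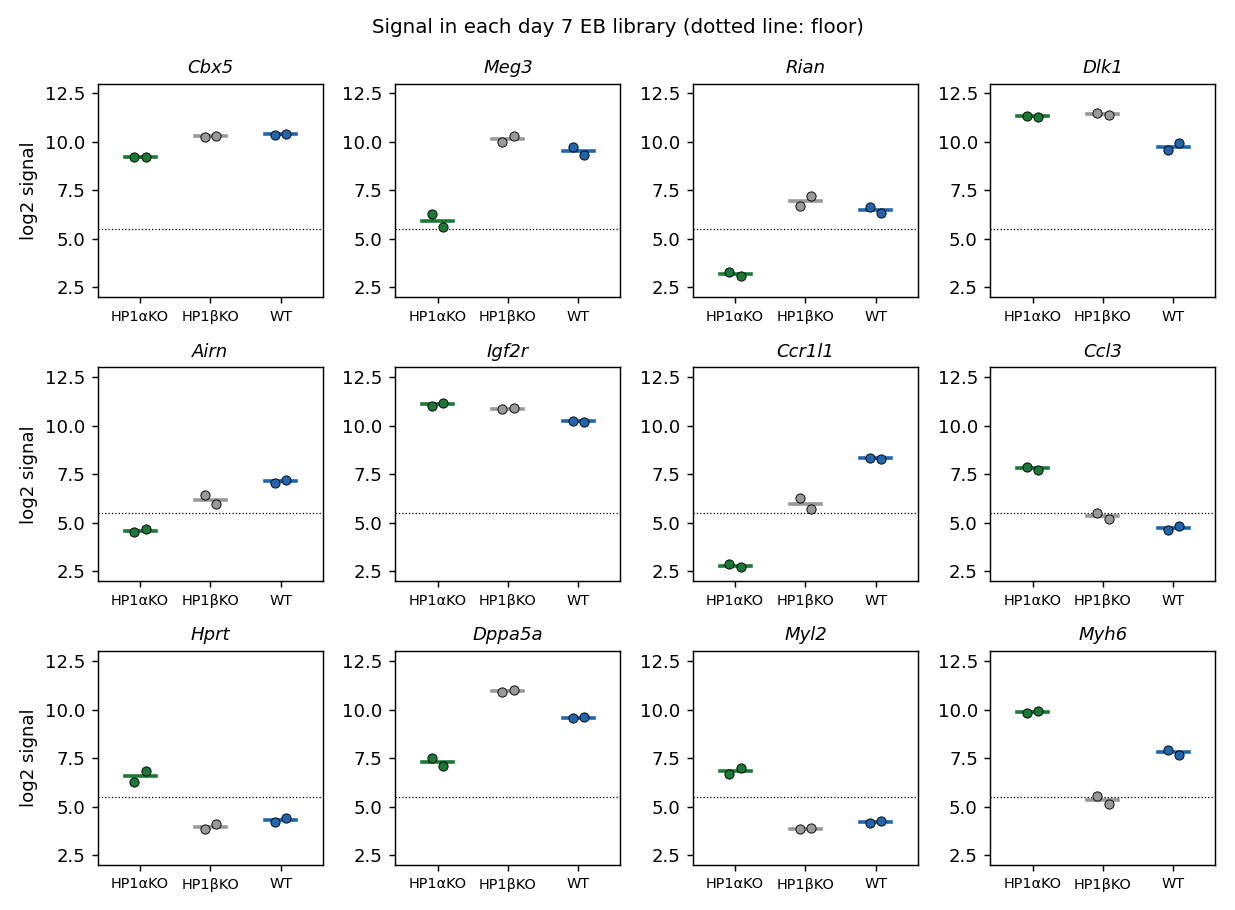
Log2 signal (vertical axis) of 12 genes on each of the 6 day 7 EB arrays; points are arrays, bars are the group means of 2 arrays and the dotted line is the floor of 5.49. Meg3, Rian, Airn and Ccr1l1 are lowest in EB HP1αKO, where Rian, Airn and Ccr1l1 lie under the floor, and Hprt is above the floor in EB HP1αKO alone.

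The called genes were not spread evenly over the chromosomes. On chromosome 8, 230 of 564 genes tested were lower (40.8%) and 6 higher (1.06%), with a median difference of -0.32. On chromosome 11, 158 of 880 were higher (18.0%) and 10 lower (1.14%), with a median of 0.19. The other 18 chromosomes had medians between -0.01 and 0.06, with 5.49% to 9.14% of genes higher and 1.93% to 8.31% lower. Chromosome 8 thus held 40.4% of all lower calls and chromosome 11 held 20.3% of all higher calls. Outside these chromosomes, 616 of 8592 genes were higher (7.17%) and 329 lower (3.83%). Called members of the gene lists on chromosome 11 were Grb10, Myl4, Myl7, Myocd, Ramp2, Ccl3, Vtn, Stat3, Col1a1, Mfap4, Fzd2 and Ccng1, all higher. Hand1, Hba-x and Hoxb4 lie there too and fell.

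These shifts ran along the whole chromosome. Cut into eighths by gene order (GRCm38.p6), chromosome 8 had a median between -0.36 and -0.26 in every eighth, and chromosome 11 one between 0.15 and 0.20. In all, 512 of the chromosome 8 genes (90.8%) lay below 0 and 748 of the chromosome 11 genes (85.0%) above it. Relative to the mean of the 6 EB arrays and to the genes of other chromosomes, the median of chromosome 8 lay at -0.17 and -0.17 in EB HP1αKO and at -0.02 and -0.01 in EB HP1βKO, against 0.18 and 0.20 in EB WT. That of chromosome 11 lay at 0.04 and 0.04 in EB HP1αKO and at 0.06 and 0.08 in EB HP1βKO, against -0.10 and -0.12 in EB WT. The 3 groups of EBs stood at 3 levels on chromosome 8, while on chromosome 11 the WT arrays stood apart from both knockouts. Mouse ESC lines are known to gain whole chromosomes during culture, 8 and 11 among them. DNA copy number was not measured in this series, and its part in these differences was not tested.

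The ESC arrays showed the same chromosome shifts, but not along their labels. The median of chromosome 8 lay at -0.16 and 0.18 in the libraries labelled ESC HP1αKO 1 and 2, and at 0.16 and -0.12 in those labelled ESC WT 1 and 2. Cbx5 read 8.04 in the library labelled ESC HP1αKO 1 and 8.29 in that labelled ESC WT 2, against 9.66 in ESC WT 1 and a still higher level in ESC HP1αKO 2. Among these 4 libraries, low Cbx5 and a low chromosome 8 came together in those labelled ESC HP1αKO 1 and ESC WT 2. They did not in ESC HP1βKO 1, where chromosome 8 lay at -0.12 and Cbx5 read 9.72. Meg3 was low in the same pair, at 5.28 in ESC HP1αKO 1 and 5.62 in ESC WT 2, against 9.36 in ESC HP1αKO 2 and 8.93 in ESC WT 1.

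**Figure D2:**
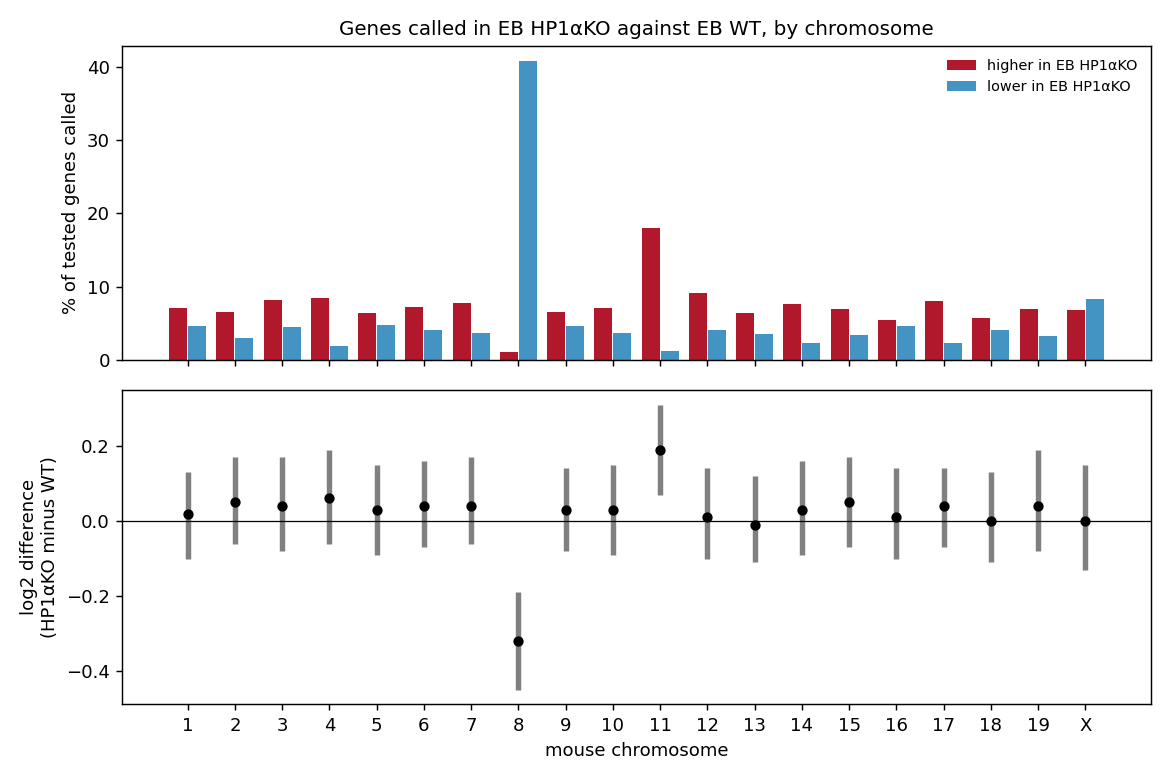
Upper panel, percent of tested genes called higher (red) or lower (blue) in EB HP1αKO on each mouse chromosome; lower panel, median log2 difference per chromosome (point) with the quartiles (bar). Chromosome 8 stands out with 40.8% of genes lower and a median of -0.32, and chromosome 11 with 18.0% higher and a median of 0.19.

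Neighbouring genes that were called the same way formed 33 runs of 3 or more, of which 22 lay on chromosome 8, all lower, and 2 on chromosome 11, both higher. The longest held 8 genes, N4bp1, Cbln1, Zfp423, Cnep1r1, Heatr3, Tent4b, Brd7 and Nkd1 on chromosome 8, with differences between -1.88 and -0.46. Some differences on these chromosomes were far larger than the shift of the chromosome. Cbln1, a secreted synapse organiser, read 6.01 and 5.74 in EB HP1αKO against 7.69 and 7.83 in EB WT (-1.88 ± 0.12). Apela, which encodes a short secreted peptide of early endoderm and heart development, read 7.72 and 7.78 in EB HP1αKO against 9.55 and 9.66 in EB WT (-1.86 ± 0.11). Against the direction of the chromosome, Foxc2, a forkhead factor of paraxial mesoderm and vessels, read 6.83 and 6.82 in EB HP1αKO and 5.21 and 5.53 in EB WT (1.45 ± 0.13). On chromosome 11 the run of Ddc, Grb10, Cobl and Egfr was higher by 0.79 to 1.28. Of 9 runs on other chromosomes, the longest, Itgb3bp, Efcab7, Pgm1, Ror1, Cachd1, Raver2 and Jak1 on chromosome 4, was higher by 0.37 to 0.90.

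Zinc finger genes as a list did not exceed the background. Of 205 tested genes named Zfp, 6 were higher (2.93%) and 10 lower (4.88%), against 7.77% and 5.67% of all genes, with a median of 0.00. Of 17 on chromosome 8, 8 were lower, in a chromosome where 40.8% of all genes were. With 1 array left out the lower calls numbered between 1 (without either HP1αKO array) and 11, and the higher ones between 1 and 7. The 8 ran from Zfp330 (-0.57) to Zfp868 (-0.41). Away from chromosome 8, Zfp711, an X-linked chromatin regulator, read 6.80 and 6.88 in EB HP1αKO against 7.77 and 7.83 in EB WT (-0.96 ± 0.16), and Zfp991 read 7.53 and 7.51 in EB HP1αKO against 6.35 and 6.66 in EB WT (1.01 ± 0.14). Zfp36 and Zfp365, 2 of the 6 rises, lay at or under the floor on both WT arrays.

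**Figure D3:**
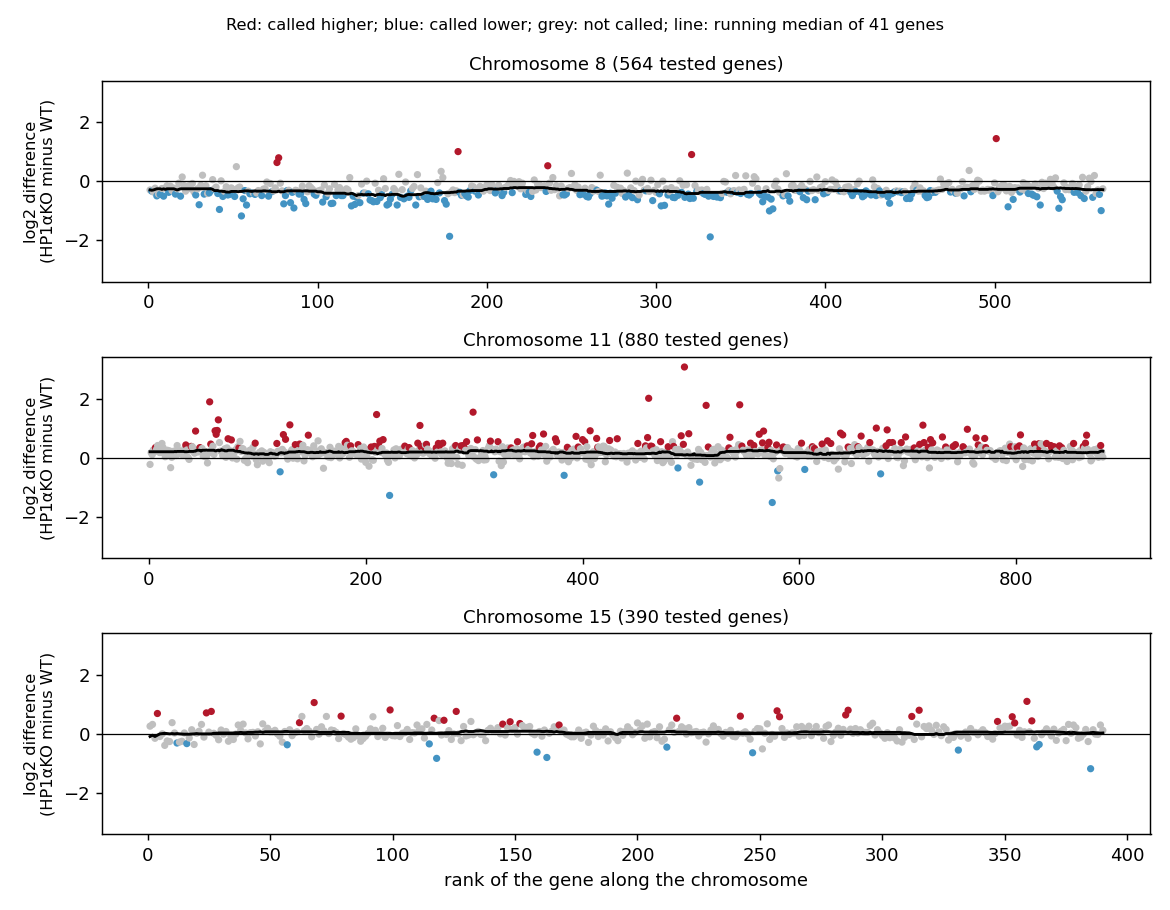
Log2 difference, EB HP1αKO minus EB WT (vertical axis), of every tested gene by its rank along chromosome 8, chromosome 11 and, for comparison, chromosome 15, where Cbx5 lies; red genes were called higher, blue ones lower, and the black line is a running median. The line stays below 0 along chromosome 8 and above 0 along chromosome 11.

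Heart muscle genes were higher in EB HP1αKO almost as a body. Of 28 sarcomere genes on the array 21 passed the floor and were tested. Of these 17 rose (81.0%), against 7.77% of all genes, and 0 fell. The median difference was 1.02, against 0.04 over all genes. Of the 17, 14 passed in all 4 fits that left out an array, the exceptions being Myl7, Tpm1 and Csrp3. Myl2, Tnni3, Csrp3 and Ankrd1, 4 of the 17, were under the floor on both WT arrays. These are bulk samples, in which more cells of a type and more RNA per cell cannot be told apart. Myl2, the ventricular regulatory light chain, read 6.70 and 7.00 in EB HP1αKO against 4.18 and 4.27 in EB WT, and rose the most (2.63 ± 0.11, adjusted p = 3.73e-05). Its WT level lies under the floor, so the size of that rise is uncertain.

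The motor proteins moved with it. Myh6, the α myosin heavy chain of atrial muscle and early heart, read 9.84 and 9.95 in EB HP1αKO against 7.93 and 7.67 in EB WT (2.09 ± 0.15, adjusted p = 0.000199). Myh7, the β chain, read 8.92 and 8.92 in EB HP1αKO against 7.74 and 7.97 in EB WT (1.06 ± 0.12). Among the light chains, Myl3, the essential chain of ventricle, read 9.10 and 9.03 in EB HP1αKO against 7.32 and 7.27 in EB WT (1.77 ± 0.08), Myl4 was higher by 1.10 ± 0.13, and Myl7, the atrial regulatory chain, by 0.90 ± 0.22. Chains of ventricular and of atrial muscle were thus both higher, and no test set one kind against the other.

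Thin filament and structural genes followed at smaller sizes. Tnnt2, cardiac troponin T, read 11.03 and 10.90 in EB HP1αKO against 9.89 and 9.79 in EB WT (1.13 ± 0.11), Tnni3 differed by 0.98, Tnnc1 by 0.88, Tnni1 by 0.76 and Tpm1, a tropomyosin of many muscle types, by 0.32. The Z-disc actin crosslinker Actn2 read 7.44 and 7.42 in EB HP1αKO against 5.84 and 5.87 in EB WT (1.58 ± 0.14). The M-band protein gene Myom1 read 7.40 and 7.47 in EB HP1αKO against 6.06 and 5.88 in EB WT (1.47 ± 0.09), and the myosin binding protein gene Mybpc3 read 8.42 and 8.42 in EB HP1αKO against 7.16 and 6.98 in EB WT (1.35 ± 0.13). Of the 4 genes that did not pass, Actc1, cardiac α actin, came closest (12.38 and 12.35 in EB HP1αKO against 11.61 and 11.46 in EB WT, adjusted p = 0.0543). Ldb3 (0.50) and Nebl (0.32) were also above 0, and Ttn, the titin gene, was the 1 member below it (5.29 and 5.61 in EB HP1αKO against 5.86 and 5.15 in EB WT).

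**Figure D4:**
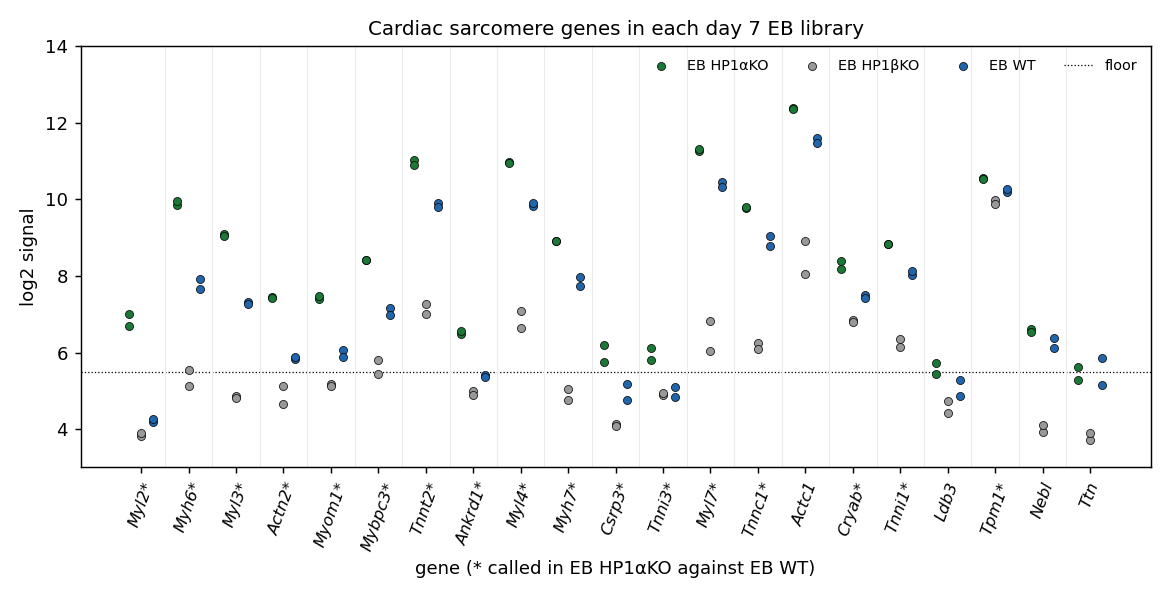
Log2 signal (vertical axis) of the 21 tested cardiac sarcomere genes on each of the 6 EB arrays, in order of the difference between EB HP1αKO and EB WT; the dotted line is the floor of 5.49 and an asterisk marks the 17 called genes. Both EB HP1αKO arrays (green) lie above both EB WT arrays (blue) for 20 of 21 genes, Ttn being the exception, and the EB HP1βKO arrays (grey) lie below the WT arrays for all but Tnni3.

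Promoters are shown for 3 of the called genes, because sarcomere genes share binding motifs for the factors that drive muscle transcription. The windows hold the 250 bases before the RefSeq start site (GRCm38.p6). Capitals mark, on either strand, the CArG box that serum response factor recognises, the MCAT box of TEAD factors, CATTCC, and the GATA motif AGATAA. Myl3 is at chr9:110763428-110763677 on the plus strand, Myl7 at chr11:5898783-5899032 on the minus strand and Myom1 at chr17:71019307-71019556 on the plus strand.
Myl3: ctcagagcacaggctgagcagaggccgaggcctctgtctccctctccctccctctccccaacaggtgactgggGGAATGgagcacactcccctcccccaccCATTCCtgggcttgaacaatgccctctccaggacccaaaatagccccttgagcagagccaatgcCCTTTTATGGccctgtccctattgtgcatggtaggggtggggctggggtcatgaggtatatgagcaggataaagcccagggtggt
Myl7: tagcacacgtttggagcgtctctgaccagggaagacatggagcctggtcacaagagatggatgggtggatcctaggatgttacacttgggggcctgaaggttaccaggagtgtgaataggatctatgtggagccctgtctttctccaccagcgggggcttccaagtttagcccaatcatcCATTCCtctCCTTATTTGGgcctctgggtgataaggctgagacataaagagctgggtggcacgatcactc
Myom1: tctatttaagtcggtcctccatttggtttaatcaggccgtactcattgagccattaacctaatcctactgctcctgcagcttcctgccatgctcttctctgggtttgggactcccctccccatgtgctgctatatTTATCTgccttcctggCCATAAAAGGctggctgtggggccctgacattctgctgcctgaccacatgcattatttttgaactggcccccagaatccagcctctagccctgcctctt
In these windows no motif overlaps another. Of the 21 tested sarcomere genes, 20 had a promoter in the table, and 6 of these held a CArG box, against 1.62% of the 27025 genes in the table. The 6 were Myl3, Myl7, Myom1, Actc1, Ldb3 and Nebl, of which the last 3 were not called. CATTCC was found for 9 of 20 genes against 14.4% of all, and AGATAA for 5 of 20 against 11.4%. A match describes the letters of a window and is not a binding site.

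Genes of calcium handling, electrical coupling and conduction were also higher, 8 of 15 tested (53.3%), with 0 lower and a median of 0.40. Gja5, the connexin of atria, conduction fibres and arteries, read 7.48 and 7.22 in EB HP1αKO against 4.61 and 4.53 in EB WT (2.78 ± 0.11, adjusted p = 2.54e-05). Tecrl, an enoyl reductase-like gene of heart muscle whose loss causes arrhythmia in humans, read 5.92 and 5.86 in EB HP1αKO against 3.48 and 4.02 in EB WT (2.14 ± 0.21). The sodium-calcium exchanger gene Slc8a1 read 7.37 and 7.41 in EB HP1αKO against 6.03 and 6.08 in EB WT (1.33 ± 0.10), and Popdc2, a cAMP-binding membrane protein gene, differed by 1.33 as well. Kcnj5, an atrial potassium channel gene, was higher by 1.07, Hrc by 0.79, Bves by 0.70 and Atp2a2, the calcium pump of the sarcoplasmic reticulum, by 0.38. Ryr2 (0.40), Hcn4 (0.12) and Trdn (-0.27) did not pass. Of the 8 rises, Gja5, Kcnj5, Tecrl and Hrc were under the floor on both WT arrays, and 5 of the 8 passed in all 4 fits that left out an array.

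The transcription factors of the heart did not move as one. Of 18 tested, 4 rose (22.2%) and 4 fell (22.2%), and the median was -0.18. Without HP1αKO 2 the rises came down to 1, and Hey1, Tbx3 and Hand1 alone passed in all 4 fits that left out an array. Hey1, a Notch target of atrium and vessels, read 8.08 and 8.12 in EB HP1αKO against 6.80 and 6.76 in EB WT (1.32 ± 0.08). Myocd, a cofactor of serum response factor, read 6.94 and 7.18 in EB HP1αKO against 6.53 and 6.52 in EB WT (0.54 ± 0.10), and Tbx1 (0.51) and Smyd1 (0.32) were higher by less. Hand1, a factor of the outer ventricle and of extraembryonic mesoderm, read 7.25 and 6.83 in EB HP1αKO against 8.15 and 8.49 in EB WT (-1.28 ± 0.18), and Tbx3, a factor of the conduction system, read 6.53 and 6.63 in EB HP1αKO against 7.63 and 7.56 in EB WT (-1.01 ± 0.10). Hand2 (-0.61), on chromosome 8, and Gata5 (-0.49) also fell. Tbx1 was under the floor on both WT arrays. Core factors did not pass, with Nkx2-5 at 0.26, Gata4 at -0.23, Gata6 at -0.19, Mef2c at -0.07 and Isl1 at 0.19.

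Other mesoderm genes differed in single members rather than in whole groups. Foxd1, a forkhead factor of kidney stroma and ventral forebrain, read 7.67 and 7.92 in EB HP1αKO against 4.74 and 4.87 in EB WT (2.99 ± 0.11, adjusted p = 2.2e-05), and Eya1, of kidney and ear primordia, differed by 1.04. Lrrn4 of mesothelium fell (-1.43), and Bnc2 fell by 0.44. Foxd1 was under the floor on both WT arrays and Bnc2 on both HP1αKO arrays, so each was tested only through its higher group. Of 10 streak and early mesoderm genes, Foxc2, Foxc1 (0.77) and Des (0.88), the muscle intermediate filament gene, rose, and Foxf1 (-0.48), of lateral plate mesoderm, fell. Smooth muscle genes rose in 3 of 10 tested, Cnn1 (0.76), Nexn (0.61) and Acta2 (0.37), with a median of 0.32.

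Matrix genes of fibroblasts and mesenchyme were higher in 7 of 20 tested (35.0%) and lower in 1 (5.0%), with a median of 0.31. Lum, a keratan sulphate proteoglycan, read 7.91 and 8.05 in EB HP1αKO against 5.40 and 5.89 in EB WT (2.33 ± 0.20, adjusted p = 0.000444). Dcn, its relative, read 7.18 and 7.24 in EB HP1αKO against 5.19 and 5.49 in EB WT (1.87 ± 0.16), where it lay at or under the floor. The fibrillar collagen genes Col3a1 (1.57), Col1a2 (1.00) and Col1a1 (0.79) and the matricellular gene Postn (1.46) rose too, and all 4 passed in every fit that left out an array. Igfbp3, a carrier of insulin-like growth factors, read 8.86 and 9.04 in EB HP1αKO against 7.02 and 7.11 in EB WT (1.89 ± 0.10). Pdgfra, a receptor of early mesenchyme, fell by 0.41, while Vim (-0.02) and Fn1 (-0.06) did not pass. The methods describe a magnetic sort for SSEA1, a surface antigen of undifferentiated cells, which was meant to keep feeder fibroblasts out of the ESC preparations, and whether the ESCs that formed the EBs were sorted was not stated.

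In endothelium, 10 of 33 genes tested rose (30.3%) and 2 fell (6.06%, near the share of all genes), with a median of 0.31. Among the rises, Edn1, the vasoconstrictor endothelin, read 6.38 and 6.29 in EB HP1αKO against 4.21 and 4.44 in EB WT (2.01 ± 0.11, adjusted p = 7.81e-05). Emcn, a surface sialomucin, read 6.67 and 6.71 in EB HP1αKO against 4.75 and 5.00 in EB WT (1.81 ± 0.18), and the arterial connexin gene Gja4 and the tight junction gene Cldn5 both differed by 1.10. Mmrn2 (0.98), Ednrb (0.62), Plvap (0.53), Tek (0.51), Ramp2 (0.51) and Nos3 (0.41) completed the group. Flt1 (-0.45), a decoy receptor for vascular endothelial growth factor, and Sox17 (-0.38) fell. The defining receptor and junction genes Kdr (0.16), Pecam1 (0.26) and Cdh5 (-0.30) did not pass. Without 1 array the count of rises lay between 5 and 13, and Emcn, Cldn5, Edn1, Mmrn2 and Gja4 passed each time. Emcn, Edn1 and Mmrn2 were under the floor on both WT arrays.

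Red cell genes ran lower, though not all of them. Of 16 erythroid and blood progenitor genes tested, 6 fell (37.5%) and 1 rose (6.25%), with a median of -0.40. Called or not, 12 of the 16 lay below 0 and 3 above it. Slc4a1 (0.00), Sptb (0.10) and Lmo2 (0.32) did not pass, and neither did Alas2 (-0.40), Epor (-0.32) and Gata2 (-0.42). The globins of the embryonic β cluster on chromosome 7 split: Hbb-bh1 read 9.09 and 8.86 in EB HP1αKO against 10.16 and 10.36 in EB WT (-1.28 ± 0.12, adjusted p = 0.000609), while Hbb-y read 10.58 and 10.43 in EB HP1αKO against 9.14 and 9.34 in EB WT (1.26 ± 0.12, adjusted p = 0.000631). Hbb-bh1 is the globin made first in yolk sac red cells and Hbb-y the one that takes over as they mature. The factors Klf1 (-0.81), which lies on chromosome 8, Gata1 (-0.73), Tal1 (-0.49) and Runx1 (-0.41) fell, as did the embryonic α globin gene Hba-x (-0.48). Globin genes are close copies of each other, so their probes may share signal. Hbb-bh1, Hbb-y and Klf1 kept their calls in all 4 fits that left out an array, and Hba-x in 0. Gata1 and Klf1 were under the floor on both HP1αKO arrays.

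Secreted products of visceral endoderm fell in 9 of 13 tested (69.2%) and rose in 2 (15.4%), and the median was -1.01. Tdo2, which opens tryptophan degradation, read 6.59 and 6.58 in EB HP1αKO against 8.55 and 8.70 in EB WT (-2.04 ± 0.13, adjusted p = 0.000123). Apob, the core apolipoprotein of secreted lipid particles, read 4.20 and 4.57 in EB HP1αKO against 6.05 and 6.22 in EB WT (-1.75 ± 0.14). Spink1, a trypsin inhibitor, differed by -1.87, Apoa1 by -1.52, the thyroxine carrier gene Ttr by -1.40, Fgb and Apom by -1.01, the retinol carrier gene Rbp4 by -0.73 and Apoe by -0.67. Of these 9, 6 passed in all 4 fits that left out an array, all but Apoe, Apom and Rbp4. Apob, Apom, Fgb and Spink1, 4 of the 9 falls, were under the floor on both HP1αKO arrays.

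Not all endoderm genes fell. Afp, the fetal serum protein of yolk sac and liver, read 7.62 and 7.57 in EB HP1αKO against 6.20 and 6.83 in EB WT (1.08 ± 0.19, adjusted p = 0.0103), and Vtn, the adhesive serum protein vitronectin, read 7.13 and 7.34 in EB HP1αKO against 5.10 and 5.35 in EB WT (2.01 ± 0.12). Vtn was under the floor on both WT arrays. Of 7 endoderm transcription factors tested, Prdm1 (0.74) and Foxa2 (0.60) rose (28.6%) and 0 fell. Hnf4a, a nuclear receptor of visceral endoderm and liver, lay at -0.43 and did not pass. Outside the lists, Rfx6, a factor of gut and pancreatic endocrine cells, read 4.69 and 4.91 in EB HP1αKO against 6.53 and 6.82 in EB WT (-1.88 ± 0.19). Rfx6 was under the floor on both HP1αKO arrays and was tested only through EB WT. Cpn1, a liver carboxypeptidase gene, read 5.41 and 5.55 in EB HP1αKO against 7.19 and 7.30 in EB WT (-1.76 ± 0.09). Cfc1, the co-receptor of Nodal in left-right patterning, read 5.59 and 5.84 in EB HP1αKO against 7.90 and 8.08 in EB WT (-2.27 ± 0.11).

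Neural progenitor genes moved both ways. Of 16 tested 7 rose (43.8%) and 3 fell (18.8%), and the median was 0.21. Among the rises, Rax, the eye field factor, read 5.92 and 5.96 in EB HP1αKO against 4.12 and 4.03 in EB WT (1.86 ± 0.10). Dbx1 (1.63), of ventral spinal and forebrain progenitors, Lhx2 (1.29), Sox2 (1.00), Otx2 (0.94), Nes (0.91) and Pax6 (0.80) rose as well. Sox2 read 9.98 and 9.95 in EB HP1αKO against 8.83 and 9.09 in EB WT, in EBs whose pluripotency genes fell.

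The 3 falls were in Pax3, Zic1 and Zic5, factors of the dorsal neural tube and neural crest. Pax3 read 4.75 and 4.65 in EB HP1αKO against 6.10 and 6.45 in EB WT (-1.57 ± 0.12), Zic1 differed by -0.89 and Zic5 by -0.79. A second feature of Zic5 differed by only -0.23 (means of 5.47 in EB HP1αKO and 5.70 in EB WT). Of these 10 genes all but Pax6 passed in every fit that left out an array. Rax, Dbx1 and Pax6 were under the floor on both WT arrays, and Pax3, Zic1 and Zic5, all 3 falls, on both HP1αKO arrays. Of 7 neuron genes tested only Tubb3 (14.3%), the neuronal tubulin on chromosome 8, was called (-0.80). Cck, a peptide hormone gene of gut and brain, read 7.78 and 8.11 in EB HP1αKO against 5.24 and 5.22 in EB WT (2.71 ± 0.14, adjusted p = 7.76e-05). It was under the floor on both WT arrays and was tested only through EB HP1αKO.

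Among pluripotency genes over the floor on at least 1 of the 4 arrays, 7 of 15 fell in EB HP1αKO (46.7%). The 1 rise (6.67%) was in Stat3 (0.37), which lies on chromosome 11. Dppa5a, an RNA-binding protein of naive cells, read 7.48 and 7.09 in EB HP1αKO and 10.91 and 11.02 in EB HP1βKO, against 9.56 and 9.62 in EB WT (-2.31 ± 0.13 for HP1αKO, adjusted p = 8.39e-05). Pou5f1, which encodes Oct4, read 6.11 and 6.15 in EB HP1αKO against 7.19 and 7.46 in EB WT (-1.19 ± 0.13), and Nanog read 6.35 and 6.32 in EB HP1αKO against 7.51 and 7.74 in EB WT (-1.29 ± 0.11). Dppa2 (-1.57), Utf1 (-1.50), Dppa4 (-1.49) and Tfcp2l1 (-0.79) fell too, and all 7 falls passed in every fit that left out an array. Of the 7, Dppa2, Dppa4 and Tfcp2l1 were under the floor on both HP1αKO arrays. Second features, with both group means under the floor, differed by -0.57 for Dppa2 and -1.82 for Dppa4. Lncenc1, a noncoding RNA of naive ESCs, read 4.10 and 4.39 in EB HP1αKO against 6.44 and 6.36 in EB WT (-2.16 ± 0.11). It too was under the floor on both HP1αKO arrays and was tested only through EB WT. The median of the list was -0.20, and genes shared with other early tissues, such as Lin28a (0.11), Sall4 (-0.16) and Klf5 (0.22), did not pass.

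Epithelial genes differed by small amounts, with 33.3% of those tested higher and 11.1% lower. Grhl2 was under the floor on both WT arrays. Of 18 tested, 6 rose, from Cldn3 (0.78) to Grhl2 (0.38), and 2 fell, the simple keratin genes Krt8 (-0.44) and Krt18 (-0.36), and 0 of these 8 calls held in every fit that left out an array.

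**Figure D5:**
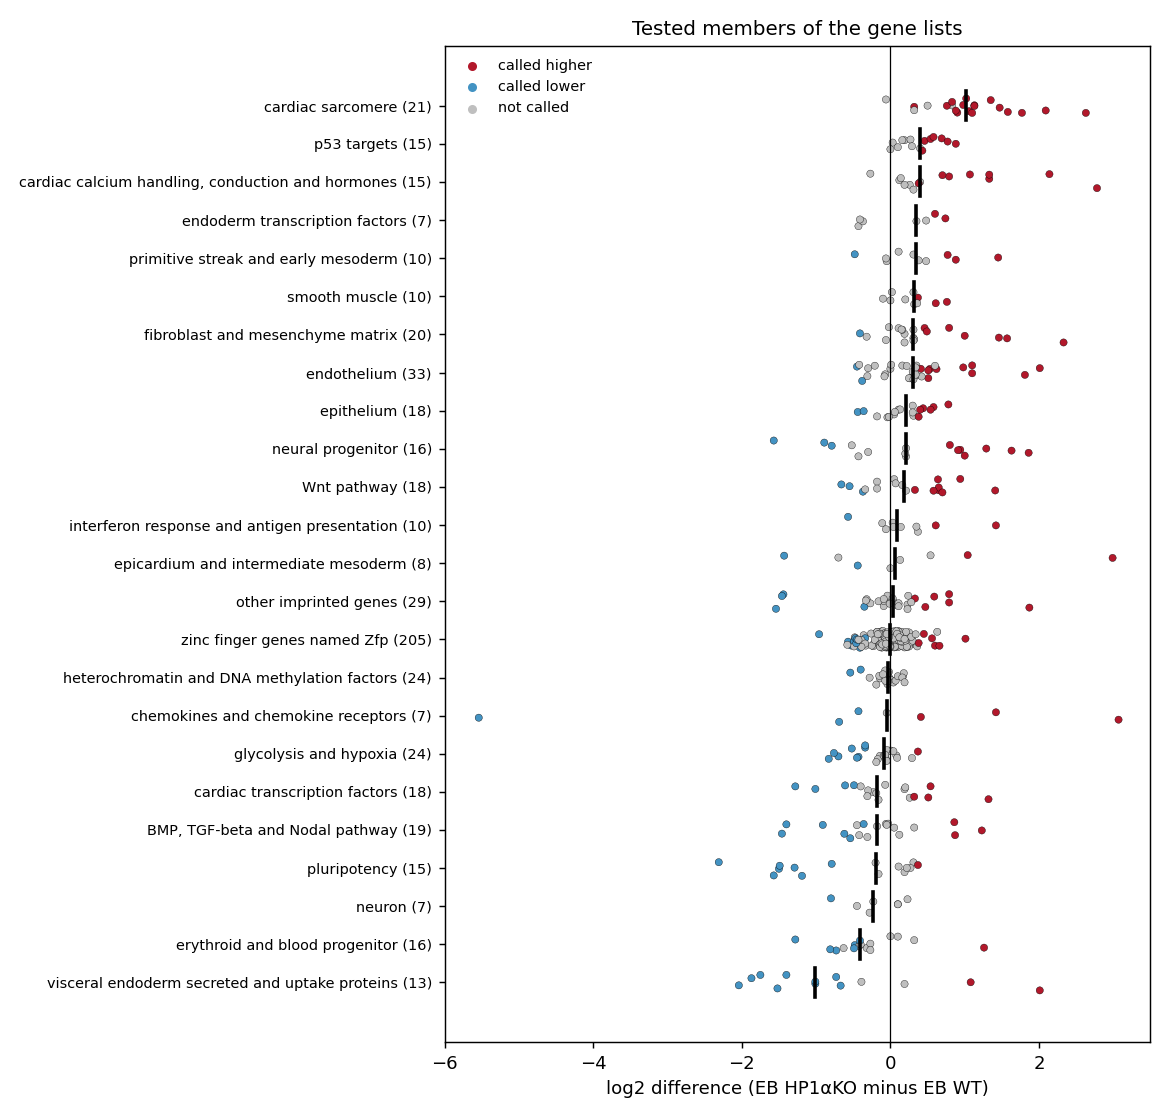
Log2 difference, EB HP1αKO minus EB WT (horizontal axis), of the tested members of the gene lists with 7 or more such members; each point is a gene, red if called higher and blue if called lower, the black bar is the median and the number of genes stands after each name. The cardiac sarcomere list has the highest median, at 1.02, and the visceral endoderm list the lowest, at -1.01.

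Signalling pathways were read through ligands, receptors and targets. In the BMP, TGF-β and Nodal pathway 3 of 19 genes rose (15.8%) and 6 fell (31.6%). Among ligands, Bmp7 (0.87) and Tgfb3 (0.86) rose and Bmp5 (-0.91) fell, while Bmp4 (-0.42), Bmp2 (-0.45) and Nodal (-0.31) did not pass. Among targets and feedback genes of BMP signalling, Msx1 read 6.38 and 6.51 in EB HP1αKO against 7.77 and 7.92 in EB WT (-1.40 ± 0.11), Msx2 read 5.71 and 6.04 in EB HP1αKO against 7.18 and 7.47 in EB WT (-1.46 ± 0.14), and the inhibitory Smads Smad6 (-0.62) and Smad7 (-0.54) and Id1 (-0.36) fell. Id4 rose (1.23), and Id2 (-0.06) and Id3 (-0.03) did not pass. Tgfb3 was under the floor on both WT arrays. Msx1 and Msx2 kept their calls whichever array was left out.

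In the Wnt pathway 8 of 18 genes rose (44.4%) and 3 fell (16.7%), with a median of 0.18. The receptors Fzd1 (0.94) and Fzd2 (0.70) and the ligands Wnt2 (0.65) and Wnt5b (0.65) rose, as did the secreted antagonists Dkk2 (1.41), Sfrp1 (0.64) and Dkk1 (0.58). The antagonist gene Sfrp5 fell (-0.66), and Sfrp2 (0.05) and Frzb (0.21) did not pass. Dkk2 read 5.99 and 6.01 in EB HP1αKO against 4.50 and 4.69 in EB WT. The targets did not go one way, with Sp5 (0.33) higher, Lef1 (-0.37) and Nkd1 (-0.55, on chromosome 8) lower and Axin2 (0.07) not called. Fzd1, Fzd2, Wnt2 and Dkk2 passed in every fit that left out an array, and 0 of the 3 falls did. Dkk2 and Sp5 were under the floor on both WT arrays and Sfrp5 on both HP1αKO arrays.

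Target genes of p53, the factor that halts the cell cycle after DNA damage, were higher by small amounts in 7 of 15 tested (46.7%). With 0 lower, their median was 0.40. Perp read 7.18 and 7.28 in EB HP1αKO against 6.33 and 6.36 in EB WT (0.88 ± 0.08), Plk2 differed by 0.77, Btg2 by 0.69, Phlda3 by 0.58, Sesn2 by 0.54, Ccng1 by 0.46 and Zmat3 by 0.43. The central feedback gene Mdm2 (0.19) and the death gene Bbc3 (0.03) did not pass. Of the 7, Perp, Btg2 and Plk2 kept their calls in each fit that left out an array.

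In glycolysis and the hypoxia response, 8 of 24 genes fell (33.3%) and 1, Vegfa (0.37), rose (4.17%). The falls came down to 2 without either HP1αKO array, and Egln3 and Ndrg1 alone passed in all 4 fits that left out an array. The falls were led by Ndrg1 (-0.83), Ankrd37 (-0.76, on chromosome 8) and Egln3 (-0.70), all induced by low oxygen, and Ndrg1 read 6.82 and 6.85 in EB HP1αKO against 7.55 and 7.78 in EB WT. The glucose transporter gene Slc2a3 differed by -0.43, but most glycolytic enzymes did not pass, with Pgk1 at -0.09, Ldha at -0.07 and Pkm at 0.04. Of 10 interferon response genes tested, Rsad2 (1.42) and Tap1 (0.61) rose and Ifitm1 (-0.57) fell. Rsad2 was under the floor on both WT arrays. Of 37 Hox genes on the array 3 passed the floor, and Hoxb4 (-0.45), under it on both HP1αKO arrays, was the 1 called.

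Ccr1l1 gave the largest difference and Ccl3 the largest rise among the named genes, and both belong to chemokine signalling. Ccr1l1, a chemokine receptor-like gene, read 2.86 and 2.73 in EB HP1αKO and 6.26 and 5.72 in EB HP1βKO, against 8.36 and 8.31 in EB WT (-5.54 ± 0.16 for HP1αKO, adjusted p = 8.83e-06). It was under the floor in both HP1αKO arrays and well above it in both WT arrays. On the ESC arrays it read 3.0 and 7.03 in the libraries labelled ESC HP1αKO 1 and 2 and 7.07 and 3.24 in ESC WT 1 and 2. Among these arrays Ccr1l1 was low where Cbx5 was low, and not along the labels. It did not follow Cbx5 in ESC HP1βKO 1 and 2, where it read 6.16 and 4.69 with Cbx5 at 9.72 and 9.88. Nor did it in EB HP1βKO, where Cbx5 read 10.26 and 10.31. Ccl3, a chemokine mainly of macrophages, read 7.89 and 7.71 in EB HP1αKO against 4.62 and 4.84 in EB WT (3.07 ± 0.13, adjusted p = 3.63e-05), and on the ESC arrays it lay between 3.47 and 3.75.

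Macrophage and leukocyte genes did not accompany the rise of Ccl3 above the floor. Of 25 such markers on the array, Cd68 alone passed the floor, and 24 lay under it on all 6 EB arrays. The defining markers Csf1r (4.11 and 4.29 in EB HP1αKO, 3.64 and 3.63 in EB WT), Ptprc and Adgre1 were among these, and the mean of the 25 was 3.92 and 3.90 in EB HP1αKO against 3.73 and 3.59 in EB WT. Under the floor, Cd53 was higher (4.70 and 4.89 in EB HP1αKO, 3.44 and 3.34 in EB WT) and Fcgr3 lower (3.21 and 3.22 in EB HP1αKO, 3.80 and 3.46 in EB WT). Such signals cannot show whether a few macrophages were present. Gimap6, a GTPase gene of lymphocytes and endothelium, read 6.43 and 6.39 in EB HP1αKO against 4.23 and 4.63 in EB WT (1.98 ± 0.15). Of the other chemokine genes, Cxcl12 rose (1.42), as did its receptor gene Cxcr4 (0.41), and Cx3cl1 (-0.69) and Ccl25 (-0.43), both on chromosome 8, fell. Ccl3 and Gimap6 were under the floor on both WT arrays, and Cx3cl1 on both HP1αKO arrays.

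Hprt, the purine salvage enzyme that the line HM1 is known to lack, read 6.28 and 6.84 in EB HP1αKO and 3.83 and 4.12 in EB HP1βKO, against 4.22 and 4.40 in EB WT (2.25 ± 0.18 for HP1αKO, adjusted p = 0.000361). Among the EBs it was above the floor in HP1αKO alone, although the labels name the line R1 for both knockouts. On the ESC arrays Hprt read 6.48 and 8.84 in those labelled ESC WT 1 and 2. It read 8.40 and 4.25 in ESC HP1αKO 1 and 2, and 4.66 and 4.56 in ESC HP1βKO 1 and 2. The other salvage genes tested, Adk (-0.12), Pnp (0.08) and Aprt (-0.26, on chromosome 8), did not pass. Of the 15 largest rises and 15 largest falls, by the rule given with the processing, 12 rises had a WT mean and 9 falls an HP1αKO mean under the floor. All 30 passed whichever of the 4 arrays was left out.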

How the data were processed

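RMA (robust multi-array average) in Affymetrix Expression Console, of unstated version, was applied by the authors to the scans, and the log2 signals they deposited were used unchanged. Feature identifiers match the annotation of the Mouse Gene 1.0 ST array, although the methods name an exon array. Of 35556 features, 21789 carried 1 gene symbol, and the brightest per symbol gave 19938 genes. Chromosome and gene order come from RefSeq on GRCm38.p6, and the build of the array annotation is not named.

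limma 3.58.1 in R 4.3.3 was fitted to the 6 EB arrays with a mean per group and empirical Bayes moderation. P-values were adjusted by the Benjamini-Hochberg method with a threshold of 0.05, past which a gene is here called. The text names the 15 largest rises and 15 largest falls with a group mean over the floor, leaving out locus and clone names, along with members of 32 lists, neighbours of Cbx5 and runs of called neighbours. Of 1043 listed genes, 996 were on the array and 599 tested. The members and lists were chosen with earlier results of these data known, and the motifs and printed promoters after seeing the values. On simulated data with 200 changed genes, 180 genes were called, 7 of them falsely. Of 50 changes each, 32 were found at 1.5-fold and 42 at 2-fold. The simulation drew noise independently for each gene and array, with no shift of a chromosome and no difference between lines. Its share of false calls therefore need not hold for these data. The number of arrays limits the precision.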

Additional observations from a re-analysis of the deposited data

Results flagged for a closer look

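For 15 of 33 genes, the 30 largest rises and falls with Cbx1, Cbx3 and Cbx5, the interaction term of a limma fit to all 12 arrays, the HP1αKO effect in EBs minus that in ESCs, passed the threshold, as it did for 40 of 10036 genes. All ESC values here rest on labels that Cbx5 opposed for 2 of the 4 ESC arrays. The effect in EBs minus that in ESCs was 3.01 for Ccl3, 2.95 for Foxd1, 2.71 for Gja5, 2.53 for Myl2, 2.18 for Tecrl, 2.04 for Gimap6, 2.03 for Rax, 1.93 for Vtn and 1.49 for Edn1. It was -1.67 for Apob, -2.07 for Tdo2, -2.09 for Rfx6, -2.40 for both Airn and Cfc1, and -2.52 for Dppa5a. The adjusted p of these terms ran from 0.000532 (Ccl3 and Gja5) to 0.0481 (Rfx6). Of the 15 genes, Dppa5a was high on all ESC arrays, and the other 14 read between 2.47 and 5.38 there, under the floor, where no difference in ESCs could show. For these 14 the term largely restates the difference in EBs by which they were chosen, and it is no separate finding.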

How the results depend on the processing

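The 1349 called genes became 141 when all 12 arrays were fitted, whose ESC arrays have a wider spread, and all 141 were among the 1349, with 20 of the 30 largest differences. They became 1619 on the 4 arrays alone, and 416 (without HP1αKO 2), 421 (without HP1αKO 1), 842 (without WT 1) and 1028 (without WT 2) with 1 array left out. Leaving chromosomes 8 and 11 out, chosen after seeing the data, gave 810, and aligning their medians with those of other genes 968. The share of higher calls, 57.8%, was 51.3% after centring each array, 67.3% after that alignment, 48.9% without WT 1 and 71.2% without WT 2. Lower calls on chromosome 8, 230 at first, were 5 with 12 arrays, 136 with no floor and 39 to 180 with 1 array left out. Higher calls on chromosome 11, 158 at first, were 10, 88 and 38 to 131. Sarcomere genes called higher were 10 with 12 arrays and 14 to 16 with 1 array left out. Cbx5 stayed at -1.18 with 12 arrays but did not pass (adjusted p = 0.605). Replicate numbers were not shown to pair the arrays (correlations of replicate differences 0.108, -0.094 and -0.453). With the replicate number as a block, 839 genes were called, 835 of them among the 1349, with 133 lower on chromosome 8 and 85 higher on chromosome 11. No called gene named here turned its direction, which with 1 array left out was fixed by groups that do not overlap. The balance of higher and lower calls did turn without WT 1, where the median over all genes, 0.04, was -0.01. Signals under the floor, and 2 arrays per group, limit what small or dim differences can show.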
